A study of Mus musculus with 18 samples.

Results

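White blood cells leave the blood in steps that are set by paired molecules: selectins on the vessel wall catch rolling cells through sugars carried on partners such as PSGL-1, and integrins on the white cell then hold fast to members of the immunoglobulin family on the vessel. The choroid plexus hangs in the ventricles of the brain and secretes cerebrospinal fluid from an epithelium laid over leaky vessels. Its vessels let proteins pass, and VCAM-1 and ICAM-1 have been described on the epithelium. The genes described here are 5 vessel ligands (Vcam1, Icam1, Madcam1, Selp and Sele) and 4 leukocyte receptors (Selplg, Itgal, Itga4 and Itgb7), which were taken by symbol from the 50584 genes of the deposited count table. All 9 were found, and 8 of them were among the 16598 genes with enough counts to be tested. Selp was not, and Sele and Itgal passed the filter on low counts only through MRL/lpr libraries.

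RNA was sequenced from flash-frozen choroid plexus of 2 mouse strains, each at an age of 12 and of 16 weeks. MRL/lpr had 6 libraries per age and MRL/+, the control strain, had 3 per age. Both strains share the MRL background. MRL/lpr is homozygous for lpr, an insertion in the death receptor gene Fas in every cell of the body, and develops lupus-like autoimmunity with swollen lymphoid organs, while MRL/+ keeps the intact gene. The labels give neither sex nor treatment and do not say that the libraries came from separate mice, so the p-values rest on the spread between libraries, which may be technical. Fas itself had 14 to 67 counts per library in MRL/lpr, against 14 to 28 in MRL/+, and since the insertion can leave transcript in place these counts do not check the labels. Total counts ran from 11164284 to 14602253 per library.

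The 15 markers of choroid plexus epithelium summed to 159186 to 313182 CPM (counts scaled by TMM to a common library size) in MRL/lpr and 190107 to 319589 in MRL/+, so the labelled tissue was present in every library. The 8 pan-leukocyte markers summed to 209 to 789 CPM in MRL/lpr, against 32.8 to 37.9 in the MRL/+ libraries, at 12 weeks, and to 129 to 1114 CPM in MRL/lpr, against 32.1 to 49.9 in the MRL/+ libraries, at 16 weeks, with none of the 8 at 0 in a group. The 12 endothelial markers summed to 59.8 to 258 CPM in MRL/lpr and 50.3 to 162 in MRL/+, with none at 0 in a group and none called different between the strains. The highest sums were those of MRL/lpr replicate 6 of 12 weeks (247), MRL/lpr replicate 4 of 16 weeks (258) and MRL/+ replicate 1 of 12 weeks (162), and the same 3 libraries stood highest in long over short transcripts. Pineal genes were highest in replicates 1 and 4 of MRL/lpr at 12 weeks (82.5 and 70.4 CPM). Cerebellar genes were highest in MRL/+ replicate 1 of 12 weeks (379) and muscle genes in MRL/+ replicate 1 of 16 weeks (611). These 4 libraries are left out together in 1 fit below. Cerebellar genes reached 166 CPM in replicate 2 of MRL/lpr at 12 weeks and 157 CPM in replicate 1 of MRL/lpr at 16 weeks. Both sums exceed the pineal ones, yet these libraries were kept in that fit. Pituitary genes summed to 18.2 to 88.1 CPM in MRL/lpr and 21.5 to 62.9 in MRL/+. In bulk RNA, more cells of a type and more RNA per cell cannot be told apart.

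The promoters of the ligands are shown first, since the inflammatory induction of these genes on endothelium is known to run through NF-kB, which binds kappa B motifs, and through interferon signalling, which acts on gamma-activated motifs. Promoters (RefSeq, GRCm38.p6, 250 bases before to 50 after the start) were found for 6 of the 9 genes, Icam1, Madcam1, Selp, Sele, Itga4 and Itgb7. The letters searched on both strands were GGG, any 5 bases and CC for kappa B, TTC, any 3 bases and GAA for gamma-activated, and GAAA, any 2 bases and GAAA for interferon-stimulated motifs. Of 32851 promoters of that length, 50.8% held the first, 8.3% the second and 3.44% the third, so a kappa B match was common. The 2 ligands that passed the test at 16 weeks and Sele, the classic cytokine-induced selectin, are given below 5′ to 3′ on the strand of the gene, with matches on either strand in capitals (all are on the plus strand; Icam1 at chr9:21015690-21015989, Madcam1 at chr10:79664309-79664608, Sele at chr1:164047984-164048283).
Madcam1: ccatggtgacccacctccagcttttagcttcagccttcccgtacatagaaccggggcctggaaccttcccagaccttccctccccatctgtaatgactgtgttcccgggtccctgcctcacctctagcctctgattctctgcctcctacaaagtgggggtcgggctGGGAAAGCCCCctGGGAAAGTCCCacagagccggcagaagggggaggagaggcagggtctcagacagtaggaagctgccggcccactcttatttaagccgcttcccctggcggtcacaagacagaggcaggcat
Icam1: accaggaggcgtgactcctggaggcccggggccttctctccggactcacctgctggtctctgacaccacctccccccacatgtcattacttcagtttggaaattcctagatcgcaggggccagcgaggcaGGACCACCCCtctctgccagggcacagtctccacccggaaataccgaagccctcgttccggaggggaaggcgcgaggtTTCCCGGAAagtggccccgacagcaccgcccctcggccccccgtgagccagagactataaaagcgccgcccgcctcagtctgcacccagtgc
Sele: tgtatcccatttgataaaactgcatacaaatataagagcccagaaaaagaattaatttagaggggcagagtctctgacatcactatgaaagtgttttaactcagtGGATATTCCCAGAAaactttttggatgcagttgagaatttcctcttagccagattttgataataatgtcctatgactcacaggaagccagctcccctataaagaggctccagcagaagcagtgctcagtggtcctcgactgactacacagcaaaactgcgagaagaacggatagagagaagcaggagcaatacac

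Madcam1 carried a pair of neighbouring kappa B blocks, whose matches began at positions -84 and -83 and at -71 and -70 from the start site, the 2 matches in each block overlapping. Icam1 had a kappa B match at -120, read on the minus strand, and a gamma-activated match at -42. In Sele a kappa B match at -145 overlapped a gamma-activated match at -140. Selp had 1 kappa B match at -15 and Itgb7 1 at -176. No match was found in the window of Itga4, and no interferon-stimulated match in any of the 6 windows.

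Of the leukocyte receptors, Selplg, Itgal and Itgb7 were called higher in MRL/lpr at both ages. The receptor Itga4 and the ligands Icam1 and Madcam1 passed at 16 weeks only, with smaller fold changes. The most abundant ligand, Vcam1, did not pass. The question of each strain comparison is whether the choroid plexus of the lupus-prone mice held more of the ligand and receptor transcripts. Bulk RNA does not show which cells made either, and this was not tested. At 12 weeks 3 of 8 tested genes were higher in MRL/lpr by edgeR's quasi-likelihood test (Selplg, Itgal and Itgb7), where 5.01% of all genes tested were called higher, and at 16 weeks 6 of 8 were higher (those 3 with Itga4, Icam1 and Madcam1), where 8.49% were called higher. None was lower at either age. All 6 MRL/lpr libraries lay above all 3 MRL/+ libraries for 5 of the 8 genes at 12 weeks, against 8.59% of genes tested. At 16 weeks they did so for 6 of 8, against 9.91%. Itgal is in each of these counts, called or not overlapping, and entered the test only through MRL/lpr libraries. Sele entered in the same way and is in none of them. The counts are therefore a description. Over all 16598 genes the median was -0.01 on the log2 scale at 12 weeks and 0.03 at 16 weeks. Of the pan-leukocyte markers, 7 of 8 rose at 12 weeks and 8 of 8 at 16 weeks. The receptors are set against Ptprc and against these markers further on. Macrophage markers summed to 366 to 3637 CPM in MRL/lpr, against 83.8 to 164 in MRL/+. Plasma cell markers summed to 279 to 2590 CPM in MRL/lpr, against 134 to 261 in MRL/+, and natural killer cell markers to 3.28 to 38.2 CPM in MRL/lpr, against 0.313 to 1.40 in MRL/+. T cell markers summed to 22.9 to 169.8 CPM in MRL/lpr, against 0.638 to 1.14 in MRL/+, where Cd3e and Cd3d were at 0 at 12 weeks. B cell markers summed to 5.24 to 139.9 CPM in MRL/lpr, against 0.318 to 0.558 in MRL/+, where Ms4a1 was at 0 at 12 weeks. Scaled by TMM, 832 genes were higher and 223 lower at 12 weeks and 1410 and 439 at 16 weeks. Scaled to the epithelial list instead, these were 543 and 25, and 3301 and 38, with the median of all genes at 0.59 at 16 weeks. The list sum is mostly Ttr and Enpp2, with means of 153540 and 46604 CPM in MRL/lpr at 16 weeks. By TMM these 2 stood at -0.44 and -0.71 at that age, neither called (adjusted p 0.17 and 0.0647, edgeR). Of the 15 epithelial markers, 3 were called lower at 16 weeks and 0 higher, so this scale is not neutral between the strains.

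**Figure D1:**
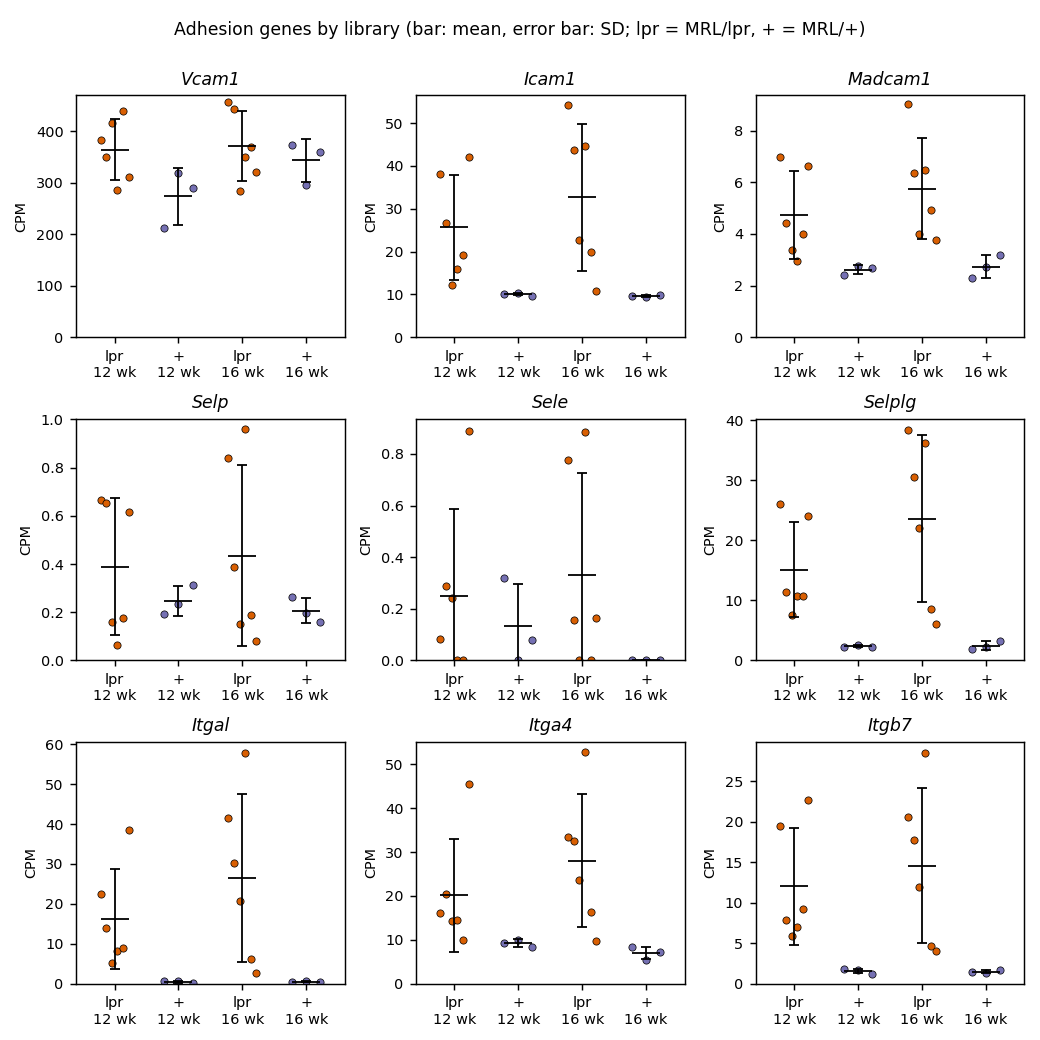
Level of each adhesion gene in each library, in CPM on linear axes that start at 0, by strain and age, with 1 point per library, the mean as a bar and the SD as the error bar. The 3 MRL/+ libraries of an age sit close together for Icam1, Selplg, Itgal and Itgb7 and below all 6 MRL/lpr libraries, while the groups overlap for Vcam1, Selp and Sele.

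Without the 4 libraries picked for pineal, cerebellar or muscle genes, no member passed at either age. The smallest adjusted p by edgeR were 0.125 for Itgal at 12 weeks and 0.0517 for Selplg at 16 weeks. In that fit Selplg stood at 2.52 at 12 weeks and 3.12 at 16 weeks on the log2 scale, Itgal at 5.44 and 5.54, Itgb7 at 2.98 and 3.29, Icam1 at 1.37 and 1.79, Madcam1 at 0.81 and 0.99, Itga4 at 1.35 and 2.17 and Vcam1 at 0.35 and 0.20. It made 34 calls over all genes at 12 weeks and 503 at 16 weeks. At 12 weeks none of the 3 calls was kept without MRL/+ replicate 1, with adjusted p 0.0568 for Itgal, 0.0769 for Selplg and 0.0679 for Itgb7. Without MRL/+ replicate 2 Itgal alone was called (adjusted p 0.0471), and without MRL/+ replicate 3 none was. All these fits held fewer MRL/+ libraries than the 3 per age of the main fit. Over all genes, 225, 320 and 280 were called higher at 12 weeks without MRL/+ replicates 1, 2 and 3, against 832 in the main fit. The part of the smaller groups in the lost calls was not tested. With the 3 libraries highest in endothelial markers left out, Itgal alone was called at 12 weeks (adjusted p 0.0488), a setting chosen after seeing the data. The fold change was positive for each of the 8 genes in every alternative in which it was tested.

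**Figure D2:**
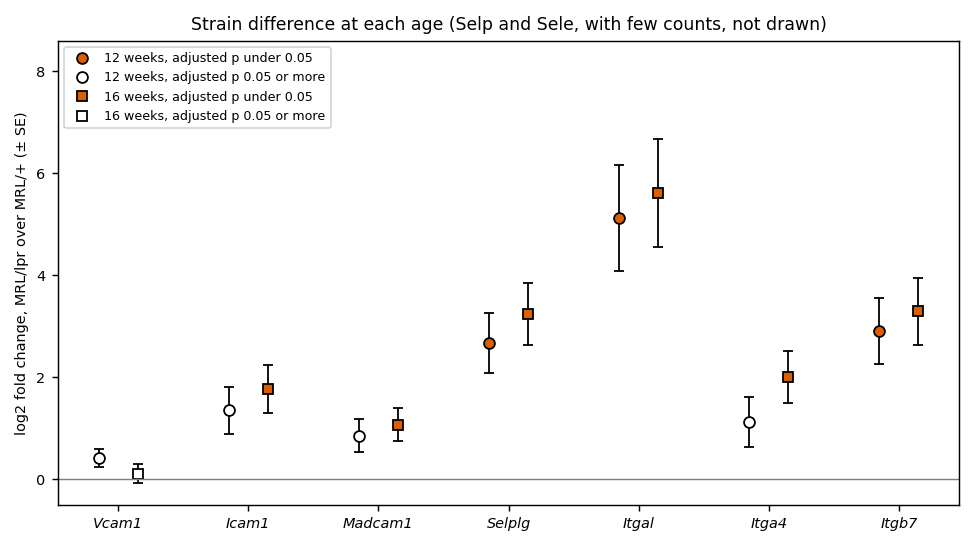
Log2 fold change of MRL/lpr over MRL/+ at 12 weeks (circles) and 16 weeks (squares) with its SE, for 7 genes (Selp and Sele are not drawn), filled where the adjusted p was under 0.05. Itgal stands highest at 5.12 and 5.62, and Vcam1 lowest at 0.41 and 0.11.

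Vcam1 (GRCm38 chromosome 3, 116109949 to 116129688, minus strand) codes for VCAM-1, which holds the integrin alpha 4 beta 1. It had 286, 366 and 439 CPM as lowest, median and highest of MRL/lpr at 12 weeks, against 212, 318 and 290 in the 3 MRL/+ libraries. At 16 weeks MRL/lpr had 284, 359 and 457 CPM as lowest, median and highest, and the MRL/+ libraries 373, 295 and 360. The groups overlapped at both ages. The log2 fold change was 0.41 (SE 0.18, adjusted p 0.194) at 12 weeks and 0.11 (SE 0.18, adjusted p 0.687) at 16 weeks by edgeR. Scaled to the epithelial list the value at 16 weeks was 0.68, with adjusted p 0.0274, beside the shift of 0.59 in the median of all genes. Over all alternatives its adjusted p at 16 weeks ran from 0.0274 to 0.973.

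Vcam1 made up most of the ligand transcripts in both strains. Per kb of exon, its level was 41.0 ± 6.70 CPM in MRL/lpr, against 30.8 ± 6.20 in the MRL/+ libraries, at 12 weeks, and 41.8 ± 7.67 in MRL/lpr, against 38.7 ± 4.71 in the MRL/+ libraries, at 16 weeks (SD, n = 6 and 3). Of the summed level per kb of the 5 ligands, Vcam1 took 81.5 ± 7.36% in MRL/lpr, against 87.7 ± 2.21% in the MRL/+ libraries, at 12 weeks, and 78.9 ± 6.09% in MRL/lpr, against 90.2 ± 1.31% in the MRL/+ libraries, at 16 weeks. Icam1 came next, with 11.7 ± 5.17% in MRL/lpr, against 6.74 ± 1.36% in the MRL/+ libraries, at 12 weeks, and 13.3 ± 4.98% in MRL/lpr, against 5.18 ± 0.501% in the MRL/+ libraries, at 16 weeks. Madcam1 took 4.53 to 9.26% in MRL/lpr and 3.46 to 5.99% in MRL/+ over both ages. Selp and Sele each stayed under 1% of the sum in every library, the highest share being 0.612% for Sele. The order was thus Vcam1, Icam1, Madcam1 and the 2 selectins, where the gap between the mean levels per kb of Icam1 and Madcam1 in MRL/lpr was under the SD of Icam1 and over that of Madcam1 at both ages. The mean levels per kb of Selp and Sele in MRL/lpr differed by less than the SD of either.

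Icam1 (chromosome 9, 21015985 to 21028817, plus strand) codes for ICAM-1, the ligand of LFA-1 and Mac-1. It had 12.1, 22.9 and 42.2 CPM as lowest, median and highest of MRL/lpr at 12 weeks, against 10.2, 10.3 and 9.73 in MRL/+. At 16 weeks it had 10.7, 33.1 and 54.2 CPM in MRL/lpr, against 9.56, 9.36 and 9.89 in MRL/+. Every MRL/lpr library lay above every MRL/+ library at both ages, the lowest of them by a small margin. The log2 fold change was 1.35 (SE 0.46, adjusted p 0.0917) at 12 weeks and 1.77 (SE 0.47, adjusted p 0.0236) at 16 weeks by edgeR. DESeq2 called it at 12 weeks too (adjusted p 0.0237, where the alternatives ran from 0.0237 to 0.432). The call at 16 weeks was lost without any one of the 3 MRL/+ libraries of that age, with adjusted p 0.0878 to 0.0946 and log2 fold changes of 1.75 to 1.79. It was lost in 7 of 28 alternatives in all, the others being no filter on low counts (0.0519), the groups of that age alone (0.0523), the length covariate (0.0599) and the fit without the 4 libraries (0.13).

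Madcam1 (chromosome 10, 79664559 to 79668537, plus strand) codes for MAdCAM-1, the ligand of alpha 4 beta 7 on vessels of the gut and its lymphoid tissue. It had 2.96, 4.21 and 7.004 CPM as lowest, median and highest of MRL/lpr at 12 weeks, against 2.42, 2.74 and 2.67 in MRL/+. The 16-week values were 3.77, 5.64 and 9.04 CPM in MRL/lpr, against 2.28, 2.73 and 3.19 in MRL/+. The groups did not overlap at either age. The log2 fold change was 0.86 (SE 0.32, adjusted p 0.122) at 12 weeks and 1.07 (SE 0.32, adjusted p 0.0411) at 16 weeks by edgeR. The call at 16 weeks was lost in 9 of 18 fits without 1 library, with adjusted p 0.0524 to 0.178: without any of the 3 MRL/+ libraries of 16 weeks, replicates 1, 2 or 4 of MRL/lpr at 16 weeks, replicate 2 of MRL/lpr at 12 weeks, or replicates 2 or 3 of MRL/+ at 12 weeks. The log2 fold change in those fits was 0.93 to 1.2. It was lost in 15 of 28 alternatives in all, among them no filter (0.0604), the groups of that age alone (0.0643), the length covariate (0.0795) and the fit without the 3 libraries highest in endothelial markers (0.0575).

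The selectin genes were near the limit of detection, and neither passed. Sele (chromosome 1, 164048234 to 164057677), E-selectin of activated endothelium, had at most 13 counts in a library and 55 in all 18. It had 1, 4, 3, 0, 0 and 13 counts in MRL/lpr at 12 weeks and 5, 0 and 1 in MRL/+, a pooled ratio of 1.82 (exact 95% interval 0.709 to 5.50, counting error only). At 16 weeks it had 12, 2, 0, 12, 0 and 2 counts in MRL/lpr and 0 in each MRL/+ library. The pooled MRL/lpr rate was 4.09 times a floor of 3 counts over the MRL/+ group, which covers counting error only. Most of the MRL/lpr counts came from the 2 libraries with 12, and the difference did not pass (adjusted p 0.155 by edgeR). Sele entered the test only through MRL/lpr libraries, and the groups overlapped at 0. The 12-week library with 13 counts, MRL/lpr replicate 6, and 1 of those with 12 counts, MRL/lpr replicate 4 of 16 weeks, were the MRL/lpr libraries with the highest endothelial sums.

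Selp (chromosome 1, 164115264 to 164150026), P-selectin of platelets and endothelium, had 8, 9, 2, 1, 2 and 9 counts in MRL/lpr at 12 weeks and 3, 3 and 4 in MRL/+. The 16-week values were 13, 5, 2, 13, 2 and 1 counts in MRL/lpr and 3, 2 and 2 in MRL/+. The groups overlapped at both ages. Selp shares 438 exon bases with Gm16548 on the opposite strand, whose 190 counts exceed the 84 of Selp. The pooled ratio was 1.61 (exact 95% interval 0.768 to 3.68) at 12 weeks and 2.25 (0.989 to 6.00) at 16 weeks, so no difference was detectable at this depth. The 7 platelet and megakaryocyte markers summed to 9.23 to 18.01 CPM in MRL/lpr and 10.9 to 12.2 in MRL/+.

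Selplg (chromosome 5, 113818536 to 113832644, minus strand) codes for PSGL-1, the selectin partner on nearly all white cells. It had 7.58, 11.1 and 26.1 CPM as lowest, median and highest of MRL/lpr at 12 weeks, against 2.22, 2.59 and 2.27 in MRL/+. At 16 weeks it had 6.06, 26.2 and 38.4 CPM in MRL/lpr, against 1.93, 2.24 and 3.27 in MRL/+. The lowest MRL/lpr library was thus above the highest MRL/+ library at both ages. It was 6.38-fold higher at 12 weeks (log2 2.67, SE 0.59, adjusted p 0.0118) and 9.47-fold higher at 16 weeks (3.24, SE 0.61, adjusted p 0.0033) by edgeR.

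Itgal (chromosome 7, 127296260 to 127335138, plus strand) codes for the alpha chain of LFA-1, which binds ICAM-1 and is made by white cells. It had 5.08, 11.6 and 38.5 CPM as lowest, median and highest of MRL/lpr at 12 weeks, against 0.572, 0.549 and 0.235 in MRL/+. The 16-week values were 2.70, 25.5 and 57.7 CPM in MRL/lpr, against 0.439, 0.780 and 0.399 in MRL/+. In counts, the MRL/+ libraries held 3 to 9 each. It was 34.8-fold higher at 12 weeks (log2 5.12, SE 1.04, adjusted p 0.00726) and 49.2-fold higher at 16 weeks (5.62, SE 1.06, adjusted p 0.00329) by edgeR.

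Itgb7 (chromosome 15, 102215995 to 102231935, minus strand) codes for the beta 7 chain, which pairs with alpha 4 to bind MAdCAM-1 and with alpha E to bind E-cadherin. It had 5.88, 8.53 and 22.7 CPM as lowest, median and highest of MRL/lpr at 12 weeks, against 1.78, 1.72 and 1.255 in MRL/+. At 16 weeks it had 4.01, 14.8 and 28.5 CPM in MRL/lpr, against 1.40, 1.36 and 1.68 in MRL/+. The groups did not overlap. It was 7.52-fold higher at 12 weeks (log2 2.91, SE 0.65, adjusted p 0.0119) and 9.79-fold higher at 16 weeks (3.29, SE 0.67, adjusted p 0.00487) by edgeR.

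Itga4 (chromosome 2, 79255426 to 79333123, plus strand) codes for alpha 4, the chain shared by the receptors of VCAM-1 and MAdCAM-1. It had 9.93, 15.3 and 45.5 CPM as lowest, median and highest of MRL/lpr at 12 weeks, against 9.34, 10.03 and 8.31 in MRL/+. The 16-week values were 9.67, 28.1 and 52.8 CPM in MRL/lpr, against 8.33, 5.46 and 7.26 in MRL/+. The groups overlapped at 12 weeks, where 5 of 6 MRL/lpr libraries lay above all of MRL/+, and did not at 16 weeks. The log2 fold change was 1.13 (SE 0.48, adjusted p 0.184) at 12 weeks and 2.0 (SE 0.51, adjusted p 0.0181) at 16 weeks by edgeR.

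The call for Itga4 at 16 weeks was lost without any one of the 3 MRL/+ libraries of that age, with adjusted p 0.0622 to 0.0883 and log2 fold changes of 1.85 to 2.14. The highest Itga4 levels, 45.5 and 52.8 CPM, were those of MRL/lpr replicate 6 of 12 weeks and replicate 4 of 16 weeks, the MRL/lpr libraries highest in long over short transcripts, and with that measure in the fit Itga4 was called at 12 weeks too (adjusted p 0.00708, where the alternatives ran from 0.00708 to 0.515). Itga4 shares 1124 exon bases with Cerkl on the opposite strand, which had at most 89 counts in a library. The strand setting of the counting is not given in the sources used here, and the part of this overlap in the level of Itga4 was not tested.

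No member passed between the ages. Of 16598 genes, edgeR called 6 (0.0361%) between 16 and 12 weeks in MRL/lpr, 0 (0.0%) in MRL/+ and 0 (0.0%) for the strain by age interaction, against 1117, 2173 and 2286 at an unadjusted p under 0.05. DESeq2 called 85, 9 and 0 genes and voom with sample weights 21, 1724 and 0. The log2 differences of 16 over 12 weeks in MRL/lpr were 0.03 for Vcam1, 0.35 for Icam1, 0.29 for Madcam1, 0.65 for Selplg, 0.71 for Itgal, 0.48 for Itga4 and 0.28 for Itgb7, each with an adjusted p of 0.791 or more. In MRL/+ they ran from -0.39 for Itga4 to 0.33 for Vcam1 among these 7 genes. The step in the number of members called, 3 at 12 weeks and 6 at 16 weeks, was therefore not a difference between the ages that passed a test.

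The makeup of the receptor transcripts is given as a description, with no test. Per kb of exon, Itgb7 stood at 3.33 ± 1.74 times Itga4 in MRL/lpr, against 0.872 ± 0.101 times in the MRL/+ libraries, at 12 weeks, and at 2.47 ± 0.604 times in MRL/lpr, against 1.10 ± 0.217 times in the MRL/+ libraries, at 16 weeks, with no overlap at either age. Itgal took 19.4 ± 4.40% of the summed level per kb of the 4 receptors in MRL/lpr, against 3.61 ± 1.23% in the MRL/+ libraries, at 12 weeks, and 20.7 ± 6.37% in MRL/lpr, against 4.99 ± 2.45% in the MRL/+ libraries, at 16 weeks. Itga4 took 12.9 ± 4.35% in MRL/lpr, against 35.6 ± 1.02% in the MRL/+ libraries, at 12 weeks, and 13.7 ± 4.13% in MRL/lpr, against 29.6 ± 6.16% in the MRL/+ libraries, at 16 weeks. The share of Selplg differed by less than 1 SD: 30.8 ± 3.66% in MRL/lpr, against 29.9 ± 2.90% in the MRL/+ libraries, at 12 weeks, and 33.9 ± 3.44% in MRL/lpr, against 33.7 ± 5.70% in the MRL/+ libraries, at 16 weeks.

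Each receptor was also set against Ptprc, which codes for CD45, the surface phosphatase of all white cells. Ptprc rose to 57.7 ± 41.6 CPM in MRL/lpr, against 2.59 ± 0.682 in MRL/+ at 12 weeks (adjusted p 0.00477), and to 82.3 ± 56.7 CPM in MRL/lpr, against 2.43 ± 0.586 in MRL/+ at 16 weeks (adjusted p 0.00215, edgeR). Per Ptprc transcript, Itga4 and Selplg were lower in MRL/lpr at both ages and Itgb7 at 16 weeks. Ptprc itself rose by 4.48 and 5.09 on the log2 scale, so a gene equal in both strains would also be lower by this measure. The log2 ratio of Itga4 to Ptprc was -1.41 ± 0.49 in MRL/lpr, against 1.82 ± 0.48 in the MRL/+ libraries, at 12 weeks, and -1.31 ± 0.62 in MRL/lpr, against 1.4997 ± 0.51 in the MRL/+ libraries, at 16 weeks. These differences of -3.23 and -2.81 had adjusted p 0.0429 each in an exact two-sided permutation test over the libraries, whose smallest unadjusted p with 6 against 3 is 0.0119, the value reached by both.

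Selplg over Ptprc differed by -1.69 on the log2 scale at both ages, with adjusted p 0.0429 each by the exact permutation test. Itgb7 over Ptprc differed by -1.503 at 12 weeks, which did not pass (adjusted p 0.0714), and by -1.73 at 16 weeks, which did (adjusted p 0.0429). All 6 MRL/lpr libraries lay below all 3 MRL/+ libraries for Itga4 and Selplg at both ages and for Itgb7 at 16 weeks. A gene equal in both strains would also lie below, since Ptprc rose, and could reach the same smallest p. The separation therefore does not set these receptors apart from other genes. The share of all genes lying below in the same way was not computed. Itgal over Ptprc differed by 0.46 at 12 weeks (adjusted p 0.571) and 0.19 at 16 weeks (adjusted p 0.704), with a pseudocount of 0.1 CPM. With 0.5 CPM it differed by -0.13 and -0.27, so its sign depends on the pseudocount. With 7 other pan-leukocyte genes in place of Ptprc the directions of Itga4, Selplg and Itgb7 held and none passed, with differences of -2.45 and -1.64 for Itga4 (adjusted p 0.0536 each), -0.91 and -0.52 for Selplg and, at 16 weeks, -0.56 for Itgb7.

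**Figure D3:**
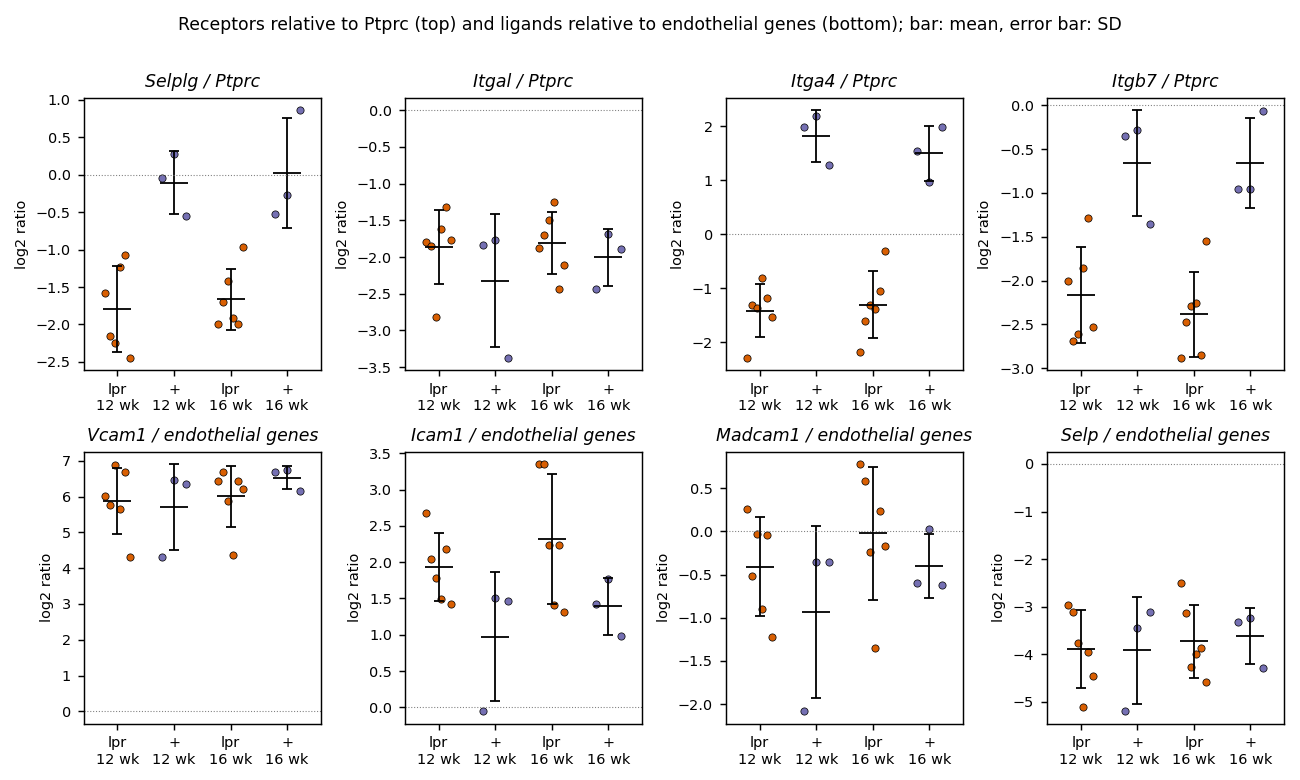
Log2 ratio of each receptor to Ptprc (top) and of 4 ligands to the mean of 12 endothelial genes (bottom) in each library, with the mean as a bar and the SD as the error bar. MRL/lpr lies below MRL/+ for Itga4 at both ages, by 3.23 and 2.81, and the groups overlap for every ligand drawn.

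No ligand passed relative to the endothelial list by the same test. The log2 difference for Icam1 was 0.96 at 12 weeks (adjusted p 0.184) and 0.93 at 16 weeks (adjusted p 0.348). For Madcam1 it was 0.52 (adjusted p 0.571) and 0.37 (adjusted p 0.643), and for Vcam1 0.17 (adjusted p 0.933) and -0.52 (adjusted p 0.571), all by exact permutation. The values for Vcam1, Madcam1 and Selp at 12 weeks turned negative without MRL/+ replicate 1, the library with the highest endothelial sum of its group.

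Within MRL/lpr, Icam1 and its receptor chain Itgal varied together from library to library. Over the 6 MRL/lpr libraries of 12 weeks, Pearson's r of log2 levels was 0.98 (permutation p 0.00139, the smallest the 720 pairings can give, adjusted p 0.0139) and Spearman's rho was 1.0 (permutation p 0.0028, adjusted p 0.0278). Over the 6 of 16 weeks, r was 0.94 (permutation p 0.00417, adjusted p 0.0208) and rho 0.94 (permutation p 0.0167, adjusted p 0.0833). Without the 2 libraries farthest from the median of Itgal, r was 0.99 and 0.79. Of 10 relations examined, 5 pairs at each of 2 ages, these passed along with Madcam1 and Itgb7 at 12 weeks.

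Madcam1 with Itgb7 gave r of 0.94 (permutation p 0.0139, adjusted p 0.0463) and rho of 0.83 (permutation p 0.0583, adjusted p 0.117) at 12 weeks. At 16 weeks r was 0.74 and rho 0.89 (permutation p 0.103 and 0.0333, adjusted p 0.206 and 0.0833). Without the 2 libraries farthest from the median of Itgb7, r was 0.60 and 0.69, on too few libraries to say what the relation rested on. Vcam1 with Itga4 gave r of -0.57 and 0.39 and rho of -0.66 and 0.43 (permutation p of r 0.232 and 0.444, adjusted p 0.290 and 0.481; permutation p of rho 0.175 and 0.419, adjusted p 0.25 and 0.466). Selp with Selplg gave r of 0.71 and 0.85 (permutation p 0.164 and 0.0458, adjusted p 0.273 and 0.115) and rho of 0.77 and 0.89 (permutation p 0.103 and 0.0333, adjusted p 0.171 and 0.0833). Sele with Selplg gave r of 0.34 and 0.59 (permutation p 0.481 and 0.214, adjusted p 0.481 and 0.290) and rho of 0.35 and 0.58 (permutation p 0.494 and 0.244, adjusted p 0.494 and 0.306), on counts of at most 13. The MRL/lpr libraries also differed in their pan-leukocyte sums (209 to 789 CPM at 12 weeks and 129 to 1114 at 16 weeks), and the part of that spread in these relations was not tested.

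**Figure D4:**
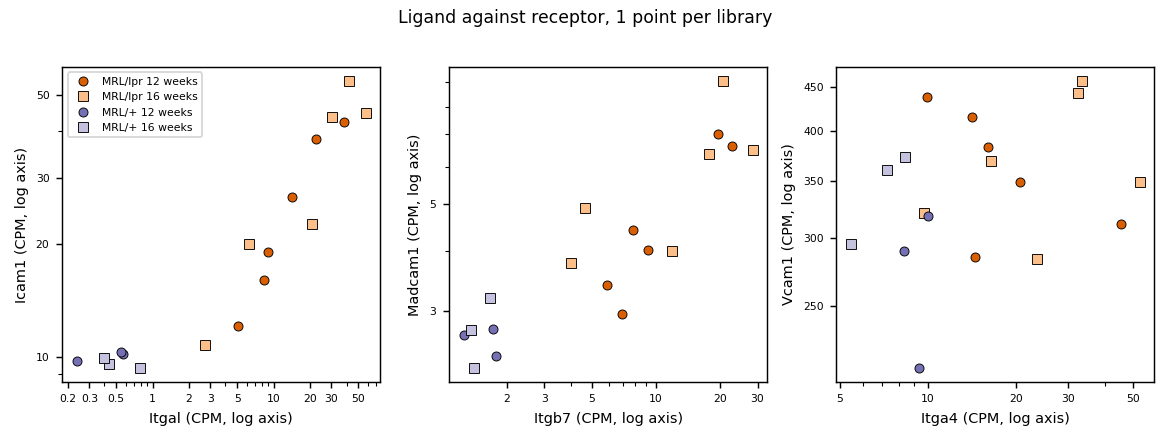
Ligand against receptor level in each library, in CPM on log axes, for Icam1 and Itgal, Madcam1 and Itgb7, and Vcam1 and Itga4. In the MRL/lpr libraries Icam1 rises with Itgal (r 0.98 at 12 weeks and 0.94 at 16 weeks), while Vcam1 shows no such line with Itga4 (r -0.57 and 0.39).

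As a description of likeness, the genes with the highest r of log2 level to each of 4 members over the 12 MRL/lpr libraries were taken, among 13600 genes. For Itgal they were Trac (0.99), the constant region of the T cell receptor alpha chain, Entpd1 (0.99), the ectonucleotidase CD39, and Adgre5 (0.99), the leukocyte adhesion receptor CD97. For Madcam1 they were Cd72 (0.96), a B cell coreceptor, Fcgr4 (0.95), an activating Fc receptor of myeloid cells, and Cxcl13 (0.95), the B cell chemokine. For Vcam1 they were Mpp1 (0.91), Mbd2 (0.89) and Rpf1 (0.88), and for Itga4 Casp2 (0.96), Ing5 (0.96) and Rbl1 (0.96), none of them a white cell marker. The points share depth and tissue makeup.

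Of the partner chains, Itgb2 of LFA-1 rose and Itgb1 did not pass. Of 12 integrin partners and other leukocyte integrins tested, 4 rose at each age and none fell. Over all genes tested, 5.01% were called higher at 12 weeks and 8.49% at 16 weeks. Itgb2, the beta chain that completes LFA-1, was at 26.5 ± 19.4 CPM in MRL/lpr, against 1.45 ± 0.292 in the MRL/+ libraries, at 12 weeks (log2 fold change 4.19, adjusted p 0.00726), and at 38.3 ± 27.6 CPM in MRL/lpr, against 2.42 ± 0.357 in the MRL/+ libraries, at 16 weeks (3.98, adjusted p 0.00559, edgeR). Itgax, the CD11c chain of dendritic cells and macrophages, rose by 6.48 and 6.94, on 5 and 4 counts over the MRL/+ groups. Itgam, the Mac-1 chain of myeloid cells, rose by 2.18 and 2.81. Itgae, the alpha E partner of beta 7, rose by 2.73 and 3.54, on 19 and 10 counts. The size of rises from so few MRL/+ counts is uncertain. Itgb1, the beta 1 chain that pairs with alpha 4 to bind VCAM-1, was at 297 ± 41.7 CPM in MRL/lpr, against 247 ± 62.1 in the MRL/+ libraries, at 12 weeks, and at 285 ± 51.5 CPM in MRL/lpr, against 327 ± 16.1 in the MRL/+ libraries, at 16 weeks. Neither difference passed (log2 0.27 and -0.20, adjusted p 0.393 and 0.439), and at 16 weeks the sign turned to 0.33 when scaled to the epithelial list. Per kb, Itgb1 stood at 63.0 ± 25.6 times Itga4 in MRL/lpr, against 92.0 ± 23.7 times in the MRL/+ libraries, at 12 weeks, and at 47.2 ± 31.0 times in MRL/lpr, against 163.5 ± 27.8 times in the MRL/+ libraries, at 16 weeks.

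Of 21 other rolling, adhesion and crossing molecules tested, 7 rose at 12 weeks and 8 at 16 weeks, and none fell. The shares of all genes called higher were 5.01% and 8.49%. Glycam1, a mucin made by high endothelial venules of lymph nodes, had 1006 counts in MRL/lpr, against 1 in the MRL/+ libraries, at 12 weeks, and 661 counts in MRL/lpr, against 3 in the MRL/+ libraries, at 16 weeks (adjusted p 0.00764 and 0.0132), ratios of 522 (exact 95% counting interval 93.4 to 20627) and 96.6 (32.9 to 469.6). Its level was uneven: 1.64 to 30.1 CPM in MRL/lpr at 12 weeks and 0.0819 to 16.2 CPM at 16 weeks, where the lowest MRL/lpr library lay within the range of MRL/+. Spn, the sialoglycoprotein CD43 of white cells, rose by 6.14 and 7.55 on the log2 scale, on 8 and 4 counts over the MRL/+ groups. Cd6, a T cell receptor for ALCAM, had 406 counts in MRL/lpr, against 2 in the MRL/+ libraries, at 12 weeks and was at least 85.5-fold higher at 16 weeks, where MRL/+ had no count.

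Of 11 genes of selectin ligand synthesis, 2 rose at 12 weeks, Fut4 and St3gal6, where 5.01% of all genes were called higher. At 16 weeks 1 rose, Fut4, a share near that of all genes called higher at that age (8.49%). Fut4, a fucosyltransferase that makes selectin-binding sugars, rose by 2.53 (adjusted p 0.0481) and 3.21 (adjusted p 0.0146), on 12 and 7 counts over the MRL/+ groups. The sialyltransferase gene St3gal6 rose by 0.91 at 12 weeks (adjusted p 0.0131). Fut7, the fucosyltransferase most needed for selectin ligands on white cells, did not pass (adjusted p 0.0668 and 0.117), nor did the tyrosine sulfotransferase gene Tpst1, which stood at -0.27 and -0.47 (adjusted p 0.324 and 0.0538, edgeR). Of 13 genes of integrin activation, 5 rose at 12 weeks and 7 at 16 weeks, beside the same 5.01% and 8.49% of all genes. Skap1, an adaptor of T cells that links receptor signals to LFA-1, had 263 counts in MRL/lpr, against 2 in the MRL/+ libraries, at 12 weeks. The others that rose at both ages were Apbb1ip, which recruits talin to integrins (3.23 and 3.29), Fermt3, kindlin-3 of blood cells (2.62 and 2.85), Fyb, the partner of Skap1 (3.31 and 3.96), and Vav1, an exchange factor of blood cells (4.03 and 4.24). Rassf5 (3.12, adjusted p 0.00717) and Rasgrp2 (1.83, adjusted p 0.045), both of the Rap1 path to integrins, passed at 16 weeks and not at 12 weeks (adjusted p 0.0935 and 0.184, edgeR).

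Of 18 adhesion-inducing cytokines and NF-kB feedback genes, 7 rose at 12 weeks and 11 at 16 weeks, and none fell. Among all genes, 5.01% and 8.49% were called higher. The 7 not called at 16 weeks were Il1b, Il1r1, Il4, Ltbr, Nfkb1, Relb and Tnfrsf1a, none of which passed at 12 weeks. Their log2 values at 16 weeks ran from -0.38 for Il1r1 to 1.15 for Il1b. Ltb, lymphotoxin beta, which drives adhesion molecules on lymphoid vessels, rose by 6.25 (adjusted p 0.00269) and 6.11 (adjusted p 0.00189). The MRL/+ groups held only 11 and 13 counts of it. Tnfaip3, the NF-kB-induced brake A20, rose by 3.04 (adjusted p 0.0113) and 3.25 (adjusted p 0.00562). Birc3, another NF-kB target, rose by 1.73 (adjusted p 0.0217) and 1.98 (adjusted p 0.0081), and Tnfrsf1b, the second TNF receptor, by 3.28 (adjusted p 0.0196) and 3.62 (adjusted p 0.00898, edgeR). Of the endothelial marker list, none of 12 passed, with a median log2 fold change of 0.15 at 12 weeks and 0.79 at 16 weeks. Vwf, von Willebrand factor of endothelium and platelets, stood outside that list and passed at both ages, at 13.1 ± 7.95 CPM in MRL/lpr, against 2.05 ± 1.64 in MRL/+ at 12 weeks (log2 2.65, adjusted p 0.0361), and 11.8 ± 9.77 CPM in MRL/lpr, against 1.66 ± 0.241 in MRL/+ at 16 weeks (log2 2.82, adjusted p 0.0216, edgeR). Fermt3, Rassf5, Rasgrp2, Vwf and the 7 uncalled genes of the cytokine list are named here after their values were seen.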

How the data were processed

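The deposited table held whole-number counts of reads per gene, made by the authors with STAR 2.5.3a, featureCounts 1.26.0 and the genome build GRCm38, per the submitters' processing notes. The annotation release, strand setting and treatment of multiply aligned reads are not stated in the sources at hand. The table also gave exon length, used for CPM per kb. Genes were filtered with filterByExpr, scaled with TMM and tested with edgeR 4.0.16's robust quasi-likelihood test in R 4.3.3 (4 group means, 18 libraries, Benjamini-Hochberg over 16598 genes, threshold 0.05). limma 3.58.1 (voom with sample weights), DESeq2 1.42.0, other scalings, no filter and left-out libraries were alternatives. Log ratios and pairs used log2 (CPM + 0.1) and exact permutation tests (Python 3.11.15, scipy 1.17.1), with ratios adjusted over 9 genes and 2 ages and pairs over 10 relations. The members and lists were chosen with earlier results of these data known. All 9 members are named, with up to 4 genes per list by smallest p of either strain contrast, plus Itgb1, Itgb2 and Ptprc, and the 3 genes most alike to Vcam1, Madcam1, Itgal and Itga4 (mean log2 CPM of at least 0). A gene that the rule also names is not reported here. The fit was tested on simulated data. Floors and counting intervals cover counting error only. No pair of libraries was a repeat (smallest chi-square per gene 6.10).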

Additional observations from a re-analysis of the deposited data

Results flagged for a closer look

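In 4 of 36 groups of 6 libraries and measures, 1 library stood far from the other 5, by a gap over 0.625 of the range. Chance gives about 1 in 20. Sele reached 0.888 CPM in MRL/lpr replicate 6 of 12 weeks, where the next was 0.290, and Itga4 reached 45.5 CPM in the same library, where the next was 20.5. The log2 ratio of Vcam1 to the endothelial list was 4.37 in MRL/lpr replicate 4 of 16 weeks, where the next was 5.88. Both libraries had the highest endothelial sums of their group. The log2 ratio of Itgal to Ptprc was -2.82 in MRL/lpr replicate 3 of 12 weeks, where the next was -1.85.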

How the results depend on the processing

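The strain fold changes of 7 tested genes were positive in all 28 alternatives that gave one, 18 of which left out 1 library, and that of Sele in the 23 in which it was tested. The number of members called at 12 weeks was 0 without the 4 libraries picked for pineal, cerebellar or muscle genes. It was 5 with the length index as a covariate, 1 without the 3 libraries highest in endothelial markers and 0 to 4 without 1 library. At 16 weeks it was 0 without the 4 libraries and 3 to 6 when 1 library was left out. The covariate and the 3 libraries were chosen after seeing the data. Over all genes, calls at 12 weeks numbered 568 scaled to the epithelial list, 34 without the 4 libraries, 3490 by voom, 1639 by DESeq2, 532 without the 3 libraries and 259 to 1463 when 1 library was left out. At 16 weeks they numbered 3339, 503 and 4849 in the first 3 of these and 665 to 2596 when 1 library was left out. Between the ages in MRL/lpr there were 1 with the replicate block, 0 in the groups alone, 0 without the 4 libraries, 21 by voom, 85 by DESeq2, 16 with the length index and 1 to 9 when 1 library was left out. In MRL/+ there were 1724 by voom and 9 by DESeq2.

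Over 21 same-numbered pairs of libraries, r ran from -0.62 to 0.45, with 6 of them over 0.1. Pairs with different numbers were not set beside these, so whether the numbers pair the samples was not tested. With the replicate block, 855 genes were higher and 237 lower at 12 weeks and 1212 and 212 at 16 weeks, and of the members' calls that of Madcam1 at 16 weeks was lost (adjusted p 0.0872).

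Uncalled age and interaction values changed sign as follows, and the cause was not tested. Without the 4 libraries, 16 over 12 weeks was -0.013 for Vcam1 and -0.089 for Sele in MRL/lpr and 0.059 for Itgb7 in MRL/+. Scaled to the epithelial list, 16 over 12 weeks in MRL/+ was -0.23 for Madcam1, -0.23 for Selplg and -0.093 for Itgal, and the interaction of Vcam1 was 0.28. By voom these were -0.016 for Madcam1, -0.077 for Selplg and 0.021 for Vcam1. With the length index, 16 over 12 weeks in MRL/+ was 0.33 for Icam1, 0.42 for Itga4 and 0.45 for Itgb7, that of Itgb7 in MRL/lpr was -0.01, and the interaction was -0.14 for Icam1, -0.023 for Madcam1, -0.18 for Itga4, -0.46 for Itgb7 and -0.82 for Itgal. When 1 library was left out, 16 over 12 weeks ran from -0.031 to 0.12 for Vcam1 and -0.005 to 0.62 for Itgb7 in MRL/lpr, and in MRL/+ from -0.058 to 0.18 for Madcam1, -0.18 to 0.23 for Selplg, -0.24 to 0.015 for Itgb7 and -0.125 to 0.45 for Itgal. Of uncalled strain values of other genes, Gp1ba was 0.087 without the 4 libraries at 12 weeks. Scaled to the epithelial list at 16 weeks, Itga2b was 0.24, Itgb1 0.33 and Tpst1 0.11. At 12 weeks Robo4 was -0.074 with the replicate block and -0.11 to 1.55 when 1 library was left out, Flt1 -0.415 to 1.57, and Tek 0.81 without the 4 libraries, 0.23 by voom, 0.71 with the length index, 0.22 without the 3 libraries and -0.615 to 0.66 when 1 library was left out.

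Ratios to markers moved more. With a pseudocount of 0.5 CPM, the 12-week difference was -0.014 for Selp, -0.024 for Sele and -1.56 for Itgb7, which then passed, and Itgal was at -0.125 and -0.27 at 12 and 16 weeks. With Cdh5 alone it was -0.28 for Vcam1, -0.43 for Selp and -0.34 for Sele at 12 weeks and 0.058 for Selp at 16 weeks. With 7 other pan-leukocyte genes, Selplg was at -0.905 and -0.52, Itga4 at -2.45 and -1.64 and Itgb7 at -0.56 at 16 weeks, none passing. Without the 3 libraries, the 12-week values were -0.21 for Vcam1, -0.505 for Selp, -1.53 for Selplg and -3.125 for Itga4, and the 16-week values -1.64 for Selplg, -2.79 for Itga4 and -1.76 for Itgb7. None of these passed by exact permutation, with adjusted p 0.171 for Selplg and Itga4 at 12 weeks and 0.107 for all 3 receptors at 16 weeks. When 1 library was left out, the 12-week values ran from -0.52 to 0.545 for Vcam1, -0.052 to 0.81 for Madcam1, -0.62 to 0.43 for Selp, -0.14 to 0.35 for Sele, -1.91 to -1.50 for Selplg, -3.50 to -3.04 for Itga4 and -0.061 to 0.74 for Itgal. At 16 weeks they ran from -0.45 to 0.074 for Selp, -1.96 to -1.27 for Selplg, -3.07 to -2.56 for Itga4, -1.90 to -1.44 for Itgb7 and -0.021 to 0.35 for Itgal. The fits at the ends of these ranges for Selplg and Itga4 each lacked 1 MRL/+ library. They did not pass at either age (adjusted p 0.107 to 0.129 by exact permutation). Nor did those at the ends for Itgb7 at 16 weeks (0.0643 and 0.107). Fewer libraries raise the smallest p an exact test can give. Depth limits Selp and Sele, at 84 and 55 counts in all.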
